A study of Oryza sativa Japonica Group with 8 samples.

Results

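The jasmonate ZIM-domain (JAZ) repressors of rice described here are OsJAZ3, OsJAZ4 and OsJAZ6 to OsJAZ13. They were chosen by name, as 10 of the 38726 features of a gene count table from rice pistils, and all 10 passed the filter on low counts in both comparisons. The plants were untreated wild type (Oryza sativa ssp. japonica, cultivar Nipponbare) at the heading stage. The 8 libraries fall into 3 groups: RNA of sorted nuclei of whole pistils (n = 2), whole-cell RNA of the upper part of the pistil (n = 3) and whole-cell RNA of its lower part (n = 3). A pistil, the seed-bearing organ of the floret, carries stigma and style above the ovary, and the labels do not say where it was divided. The 5 loci listed as pistil identity markers, DL, OsMADS3, OsMADS58, OsMADS13 and OsMADS21, had counts in every library. Each group is a bulk sample, so fewer cells of a type and less RNA per cell cannot be told apart in any difference below.

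JAZ proteins hold the jasmonate response off. They bind transcription factors of the MYC type and, through the adaptor NINJA, recruit general co-repressors, as worked out mainly in Arabidopsis. When the conjugate of jasmonate with isoleucine appears, the F-box receptor COI1 binds the JAZ protein, which is then degraded, and the transcription factors become active. JAZ genes are themselves induced by jasmonate and by wounding, so their transcript level is not a measure of the amount of repressor protein. In rice flowers jasmonate acts in spikelet development, anther opening and the opening of the floret.

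The family falls into groups by its TIFY names, as the reference gene table of rice gives them. OsJAZ3 and OsJAZ4 are OsTIFY6a and OsTIFY6b. OsJAZ6, OsJAZ7 and OsJAZ8 are OsTIFY10a, OsTIFY10b and OsTIFY10c. OsJAZ9, OsJAZ10, OsJAZ11, OsJAZ12 and OsJAZ13 are OsTIFY11a, OsTIFY11b, OsTIFY11c, OsTIFY11d and OsTIFY11e. OsJAZ9, OsJAZ11 and OsJAZ10 follow each other on chromosome 3 with 0 annotated genes between them, and 3 annotated genes lie between OsJAZ13 and OsJAZ12 on chromosome 10. The handling of reads that match several places is not stated in the labels, so counts of these neighbouring relatives may have been shared out between them. The same table lists some of these loci under a second, older JAZ numbering, so the locus identifiers given below decide which gene is meant.

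Total counts ran from 9268151 and 10857036 in the nuclei to between 24796307 and 35518142 in the 6 whole-cell libraries. Every member was covered in every library, with counts from 89 for OsJAZ13 in lower replicate 1 to 11274 for OsJAZ7 in lower replicate 2. Levels are given as CPM, the count per 1000000 counts of the library, with library sizes scaled by TMM over all 8 libraries. CPM are not corrected for transcript length, so each gene is compared between libraries and not with other genes. By Spearman correlation over all genes tested, lower replicate 3 resembled the upper libraries (mean 0.919) more than its own group (mean 0.878), whereas each of the other 5 whole-cell libraries was closer to its own part. The pistil identity markers did not all follow this. In lower replicate 3 DL had 50.6 CPM, against 253 to 460 CPM in upper libraries. OsMADS13 had 371 CPM against 175 to 313 CPM, and OsMADS21 134 CPM against 39.4 to 112 CPM. OsMADS3, at 471 CPM, was under its upper range of 489 to 715 CPM. OsMADS58, at 488 CPM, lay within its upper range of 435 to 1010 CPM. Nothing in the labels states that replicates are separate plants, and the p-values below cover the spread between libraries, which may be technical.

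Between the upper and the lower part, the members leaned to the upper part, but none passed the test. All 10 fitted log2 fold changes were above 0, from 0.01 for OsJAZ8 to 1.47 for OsJAZ9, with a median of 0.73 beside -0.02 over all genes tested. With library size as the only scaling, OsJAZ4 and OsJAZ8 were below 0. The median was 0.34 with 7 of 10 above 0 when lower replicate 1 was left out, and 1.10 with 9 of 10 above 0 when lower replicate 3 was left out. A gene was called when edgeR's quasi-likelihood test gave it a Benjamini-Hochberg adjusted p under 0.05 and its log2 fold change was 1 or more in size. By this rule 0 of 10 members were called, 0 had an unadjusted p under 0.05, and DESeq2 called 0 with 2 at an unadjusted p under 0.05. Over all genes, edgeR called 0.811% higher and 0.00335% lower, and DESeq2 4.08% and 1.38%. Upper and lower libraries with the same replicate number deviated together and were taken as pairs. With the pairs as a block 5.12% of all genes were called higher and 3.02% lower, and still 0 of the members, with 4 higher at an unadjusted p under 0.05.

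**Figure D1:**
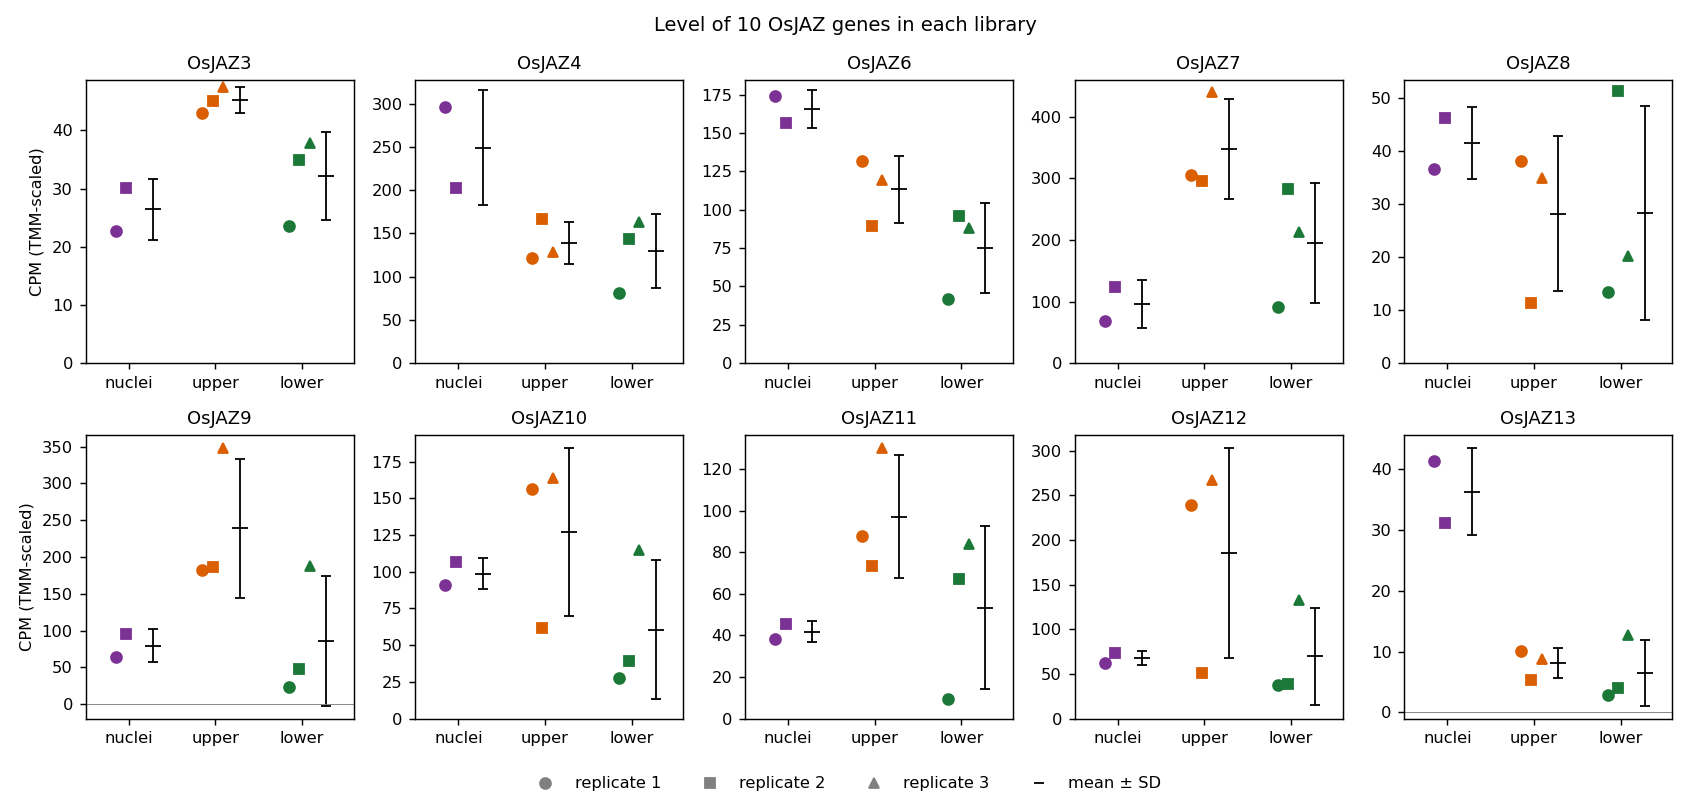
CPM (TMM-scaled, linear axis) of each of the 10 OsJAZ genes in nuclei, upper and lower libraries; symbols are replicates and bars the mean ± SD. OsJAZ13 sits at 31.3 and 41.4 CPM in nuclei, above all 6 whole-cell libraries, and lower replicate 1 is the lowest whole-cell library for 9 of the 10 genes.

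The widest gap between the parts was that of OsJAZ9 (Os03g0180800, chromosome 3), a repressor linked in rice to salt tolerance. OsJAZ9 had 183, 186 and 348 CPM in upper replicates 1, 2 and 3 and 23.2, 48.2 and 187 CPM in lower replicates 1, 2 and 3. The 2 lowest lower libraries lay far under every upper library, while lower replicate 3 reached the level of the 2 lower-lying upper libraries, so the groups overlapped. The log2 fold change was 1.47 (SE 0.77, 95% interval from -0.31 to 3.25, edgeR adjusted p = 0.427). The adjusted p was 0.0563 with the pairs as a block. It was called when lower replicate 3 was left out, where the log2 fold change was 2.78 (edgeR adjusted p = 0.0475) and 3.01% of all genes were called higher, and in the blocked fit without pair 1 or without pair 3 (1.47 and 2.43, edgeR adjusted p = 0.0405 and 0.0103), where 7.56% and 7.62% of all genes were called higher. Over all alternatives the edgeR and DESeq2 adjusted p ran from 0.0103 to 0.894.

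The other TIFY11 genes had smaller fitted differences between the parts. OsJAZ10 (Os03g0181100), whose overexpression in rice has been reported to enlarge grains, had 156, 61.4 and 164 CPM in upper libraries and 27.7, 39.0 and 115 CPM in lower libraries. OsJAZ12 (Os10g0392400, chromosome 10) had 239, 51.1 and 267 CPM in upper libraries and 37.4, 39.0 and 133 CPM in lower libraries. In both genes upper replicate 2 was far below the other 2 upper libraries and under lower replicate 3, so the groups overlapped. Their log2 fold changes were 1.08 (95% interval from -0.38 to 2.53) and 1.42 (-0.32 to 3.15), with edgeR adjusted p of 0.466 and 0.431. OsJAZ11 (Os03g0180900) had 88.1, 73.2 and 130 CPM in upper libraries and 9.27, 66.9 and 83.9 CPM in lower libraries. Its lower libraries spread over 9.05-fold, the widest range within a part among the members, since lower replicate 1 lay far under the rest. The log2 fold change of OsJAZ11 was 0.87 (95% interval from -0.77 to 2.51, edgeR adjusted p = 0.573). OsJAZ13 had its highest whole-cell level in lower replicate 3 and a log2 fold change of 0.32 (95% interval from -1.11 to 1.74).

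In the TIFY10 group, OsJAZ7 (Os07g0615200, chromosome 7) had 305, 296 and 441 CPM in upper libraries and 90.3, 283 and 213 CPM in lower libraries. Every upper library was above every lower one in TMM-scaled CPM, by a narrow margin over lower replicate 2. The log2 fold change was 0.84 (95% interval from -0.35 to 2.03, edgeR adjusted p = 0.482). OsJAZ6 (Os03g0402800) had 132, 89.3 and 119 CPM in upper libraries and 41.5, 95.8 and 87.9 CPM in lower libraries, and the groups overlapped through replicate 2. OsJAZ8 (Os09g0439200, chromosome 9), a repressor studied in rice for resistance to bacterial blight, had a pattern of its own in replicate 2. It had 38.2, 11.4 and 34.9 CPM in upper libraries and 13.4, 51.4 and 20.2 CPM in lower libraries. Its lowest and highest whole-cell values were thus both in pair 2, and the 95% interval of its log2 fold change ran from -1.41 to 1.42.

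The TIFY6 genes had the narrowest ranges within each part. OsJAZ3 (Os08g0428400, chromosome 8) had 43.0, 45.1 and 47.4 CPM in upper libraries and 23.6, 34.9 and 37.9 CPM in lower libraries. The groups did not overlap, and the log2 fold change was 0.51 (95% interval from -0.13 to 1.15, edgeR adjusted p = 0.442). OsJAZ4 (Os09g0401300) had 122, 167 and 128 CPM in upper libraries and 81.2, 143 and 164 CPM in lower libraries, with a log2 fold change of 0.11 (95% interval from -0.77 to 1.00). OsJAZ3 and OsJAZ7 were the 2 of 10 members with every upper library above every lower one, a pattern found in 9.91% of all genes tested. Both gaps depended on the TMM scaling. With library size as the only scaling, OsJAZ3 in upper replicate 3 was below lower replicate 3. OsJAZ7 in lower replicate 2 was then above upper replicates 1 and 2, so both genes overlapped.

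The ratio of upper to lower level in each gene depended on the pair. In pair 1 all 10 members were higher in the upper part, from 1.50-fold for OsJAZ4 to 9.50-fold for OsJAZ11. In pair 2 the ratios were smaller: OsJAZ9 was 3.86-fold higher, OsJAZ10 1.58-fold, and OsJAZ8 stood at a ratio of 0.222. In pair 3 the ratios lay between 0.691 for OsJAZ13 and 2.07 for OsJAZ7. All 3 pairs pointed to the upper part in 6 of 10 members, against 28.6% of all genes tested. These 6 were OsJAZ3, OsJAZ7, OsJAZ9, OsJAZ10, OsJAZ11 and OsJAZ12. With library size as the only scaling, OsJAZ7 and OsJAZ11 were lower in the upper part in pair 2, and OsJAZ3 in pair 3. OsJAZ9, OsJAZ10 and OsJAZ12 kept their direction in every pair. The share over all genes was not computed with that scaling.

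**Figure D2:**
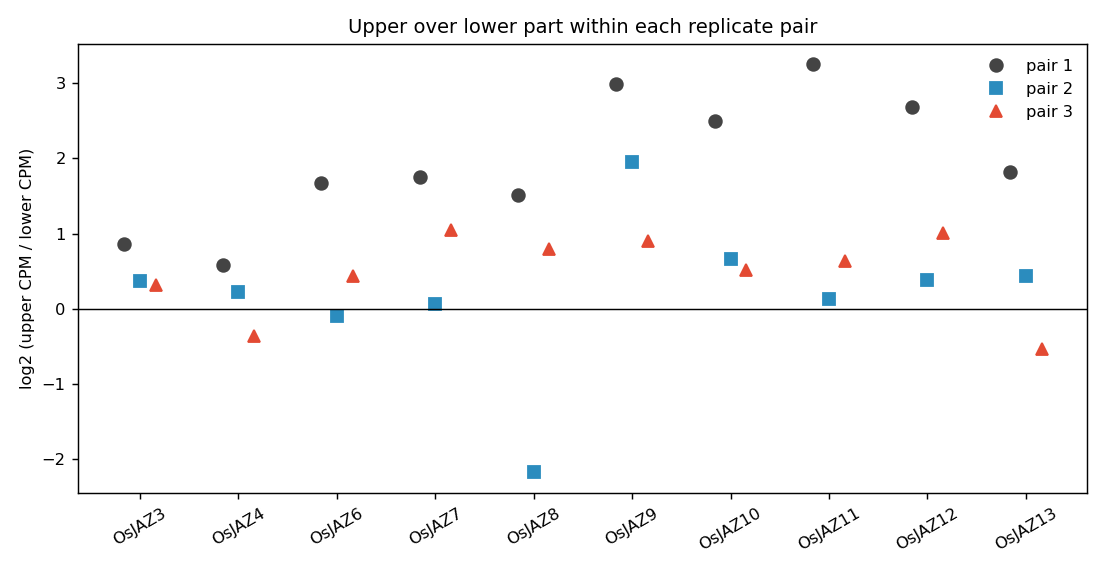
Log2 ratio of upper to lower CPM for each OsJAZ gene in each of the 3 replicate pairs; the line at 0 marks equal levels. Pair 1 lies highest for every gene, up to 3.25 for OsJAZ11, and OsJAZ8 stands at -2.17 in pair 2.

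By the median over members, levels ranged most within the lower libraries. The median ratio of the highest to the lowest library was 1.29 among nuclei libraries, 1.83 among upper libraries and 3.69 among lower libraries, whereas over the 17382 genes averaging at least 10 CPM in whole cells it was 1.71, 1.70 and 1.79. OsJAZ12 was the exception, with a range of 5.23-fold in upper and 3.55-fold in lower libraries. The nuclei ratio spans 2 libraries and those of the parts 3, so it is not comparable with them. OsJAZ13, with a mean of 7.33 CPM in whole cells, is in the members' median although it is under the limit of 10 CPM. Lower replicate 1 was the lowest whole-cell library for 9 of 10 members (for 8 with library size as the only scaling) and for 23.2% of all genes tested. Upper replicate 3 was the highest for 6 of 10 members and for 20.8% of all genes tested. With library size as the only scaling it was the highest for OsJAZ7, OsJAZ9 and OsJAZ11, but no longer for OsJAZ3, OsJAZ10 and OsJAZ12. Summed over the 5 TIFY11 genes, the levels were 676, 377 and 918 CPM in upper libraries and 100.4, 197 and 532 CPM in lower libraries. Summed over the 2 TIFY6 genes, they were 165, 212 and 175 CPM in upper and 105, 178 and 202 CPM in lower libraries.

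Markers of other floral tissue also differed between these libraries. The summed level of 7 loci listed for stamens, lodicules and pollen was 1195, 865 and 1136 CPM in upper libraries and 495, 342 and 1124 CPM in lower libraries. The sum of lower replicate 3 was thus within the range of the upper part, while the lowest sum was in lower replicate 2 and the highest in upper replicate 1. In OsMADS16, which specifies stamens and lodicules, lower replicate 3 had 676 CPM against 269 and 158 CPM in lower replicates 1 and 2. The upper libraries had 710, 261 and 471 CPM of OsMADS16. It thus made up most of the sums of upper replicate 1 and lower replicate 3, and the order of the sums depends on it. In lower replicates 1, 2 and 3, OsEXPB1 had 1.52, 13.2 and 128 CPM and OsMADS2 141, 94.3 and 239 CPM. OsMADS4, at 80.0, 73.1 and 79.2 CPM, and UDT1, at 3.10, 2.51 and 1.56 CPM, did not follow. Of the list, 7 loci had counts in each upper library and 6 in each lower library. OsC6, an anther lipid transfer protein, had 0 counts in all lower libraries, and TDR, a regulator of the anther tapetum, had at most 2.05 CPM in any library. Among the lower libraries TDR was highest in replicate 3, at 0.722 CPM. By summed CPM, 4 leaf photosynthesis loci were instead highest in replicate 2, with 375 CPM in upper and 772 CPM in lower replicate 2, against between 145 and 170 CPM in the other whole-cell libraries. Most of these 2 sums was CAB1R, at 234 and 491 CPM. OsRBCS4 and CAB2R were also highest in replicate 2 of each part. OsRBCS2 did not follow in the upper part, at 19.0, 20.2 and 20.7 CPM. The part of either list in the levels of the JAZ genes was not tested.

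Nuclei were compared with the mean of both parts to ask which transcripts differ between sorted nuclei and whole cells. OsJAZ13 was higher in nuclei, and no other member was called. The library kit also differed between nuclei and whole cells, so kit and compartment cannot be told apart. Of the 10 members, 1 was called higher and 0 lower by edgeR, beside 14.1% of all genes called higher and 8.76% lower. Besides the called gene, 1 member, lower in nuclei, had an unadjusted p under 0.05. DESeq2 called 1 member higher and 1 lower, beside 16.4% and 13.9% of all genes. The median log2 fold change of the members was -0.18, beside -0.03 over all genes tested, with 5 of 10 above 0. The members' median turned to 0.12 without lower replicate 3, to 0.26 against the lower part alone and to 0.26 with replicate numbers as a block.

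OsJAZ13 (Os10g0391400, chromosome 10) had 41.4 and 31.3 CPM in the nuclei libraries, against 10.1, 5.38 and 8.85 CPM in upper and 2.88, 3.97 and 12.8 CPM in lower libraries. Both nuclei libraries were more than 2-fold above the highest whole-cell library. The log2 fold change was 2.32 (SE 0.51, 95% interval from 1.19 to 3.45, edgeR adjusted p = 0.0116). It was 2.16 against the upper part alone and 2.48 against the lower part alone (edgeR adjusted p = 0.0362 and 0.0277). Without nuclei replicate 1 the call was lost at a log2 fold change of 2.10 (edgeR adjusted p = 0.105), and over all alternatives the adjusted p ran from 0.00095 with DESeq2 to that value. OsJAZ12, its neighbour and relative, had 62.5 and 73.2 CPM in nuclei, within the range of the whole-cell libraries, and a log2 fold change of -0.75 (95% interval from -2.31 to 0.82, edgeR adjusted p = 0.457).

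**Figure D3:**
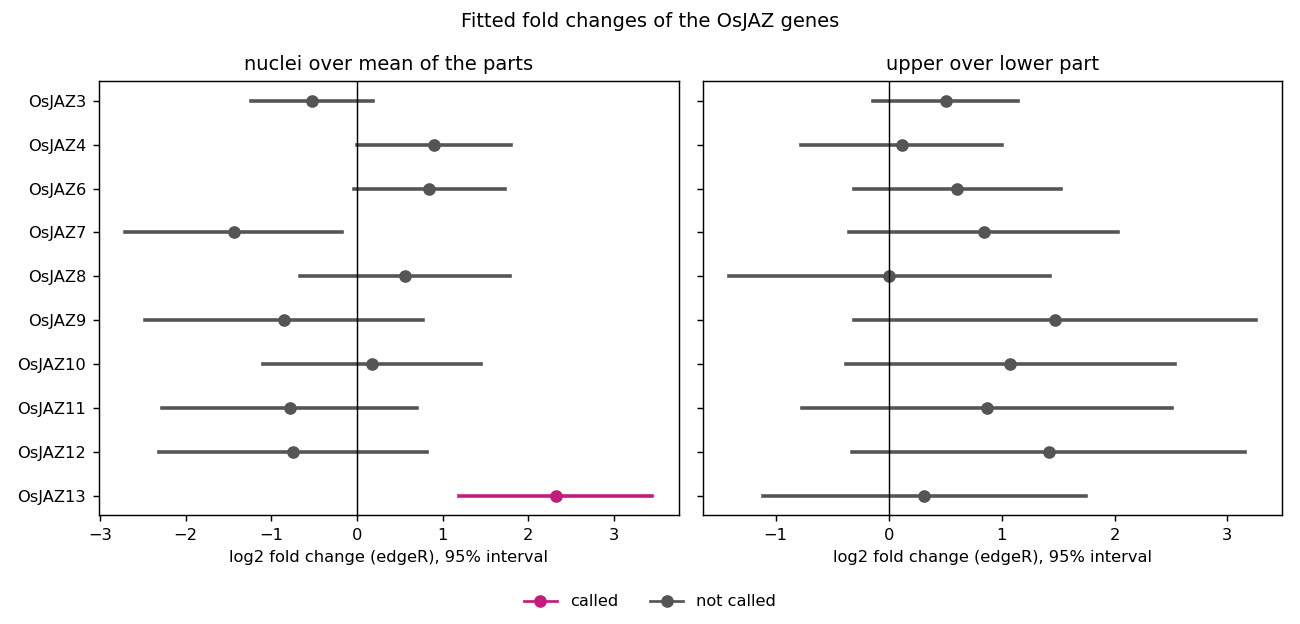
Fitted log2 fold change of each OsJAZ gene with its 95% interval, for nuclei over the mean of the parts and for upper over lower part. OsJAZ13 in nuclei (2.32) is the single called value; all intervals between the parts include 0.

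OsJAZ4 and OsJAZ6 also had every nuclei library above every whole-cell library. The nuclei libraries held 296 and 202 CPM of OsJAZ4, and the 6 whole-cell libraries averaged 134 ± 31.7 CPM (SD, n = 6). OsJAZ4 thus had a fitted log2 fold change of 0.90 (95% interval from -0.01 to 1.80, edgeR adjusted p = 0.132). The nuclei libraries held 174 and 157 CPM of OsJAZ6, and the whole-cell libraries averaged 94.3 ± 31.3 CPM (SD, n = 6). The fitted log2 fold change of OsJAZ6 was 0.84 (95% interval from -0.03 to 1.72, edgeR adjusted p = 0.143). With OsJAZ13, 3 of 10 members had this pattern, which held for 17.6% of all genes tested. The opposite pattern held for 0 of 10 members and for 17.7% of all genes tested.

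On the other side, OsJAZ7 had 68.9 and 123 CPM in nuclei and from 90.3 to 441 CPM in whole cells. Only lower replicate 1, at the bottom of that range, reached down to the nuclei. OsJAZ7 had a fitted log2 fold change of -1.44 (SE 0.57, 95% interval from -2.71 to -0.17, edgeR adjusted p = 0.0915). DESeq2 called it lower in nuclei (log2 fold change -1.41, adjusted p = 0.0206), as did edgeR without lower replicate 1 (-1.71, adjusted p = 0.0476), with 10% of all genes called lower in that fit. OsJAZ9 had 63.9 and 95.3 CPM in nuclei, OsJAZ11 38.2 and 45.3 CPM, and OsJAZ10 91.1 and 106 CPM, each between the lowest and the highest whole-cell library. Their log2 fold changes were -0.85, -0.79 and 0.17, with 95% intervals from -2.47 to 0.77, from -2.27 to 0.70 and from -1.10 to 1.45. OsJAZ10 turned below 0 against the upper part alone and without lower replicate 1 or 2. OsJAZ3 had 22.8 and 30.1 CPM in nuclei (log2 fold change -0.53, 95% interval from -1.24 to 0.19), and OsJAZ8 had 36.7 and 46.3 CPM (0.55, from -0.67 to 1.78).

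Of 15 other loci listed for jasmonate synthesis, perception and response, 14 could be tested in each comparison. Between the parts edgeR called 0 of them, although 2 had an unadjusted p under 0.05 in favour of the upper part, and DESeq2 called 2 higher and 0 lower, beside the 0.811% and 4.08% of all genes called higher by the 2 tools. Those called by DESeq2 were OsCOI1a (Os01g0853400), a jasmonate receptor, and OsJAZ5 (Os04g0395800), a further JAZ gene. OsJAZ5 had 7.79, 0.594 and 6.41 CPM in upper libraries and 0.355, 0.779 and 0.836 CPM in lower libraries, so the groups overlapped through upper replicate 2 (DESeq2 adjusted p = 0.0188, edgeR adjusted p = 0.247). The list's median log2 fold change was 0.63, with 12 of 14 above 0, and it was 0.36 without lower replicate 1 and 1.04 without lower replicate 3. With the pairs as a block OsCOI1a alone was called, 1 of 14 beside 5.12% of all genes. OsCOI1a had 150, 270 and 205 CPM in upper libraries and 84.2, 89.4 and 90.7 CPM in lower libraries, so lower replicate 3 stayed with its group in this gene. The unblocked fit gave a log2 difference of 1.26 (SE 0.35, edgeR adjusted p = 0.193), and the block gave 1.22 (edgeR adjusted p = 0.0483). The blocked call was lost without pair 2 or pair 3 (edgeR adjusted p = 0.245 and 0.0925).

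In nuclei against the parts 1 of the 14 was called higher and 2 lower, near the 14.1% and 8.76% of all genes. OsbHLH148 (Os03g0741100), a transcription factor that binds a JAZ protein and acts in drought tolerance, rose in nuclei. The nuclei libraries held 172 and 102 CPM of it, and the whole-cell libraries averaged 21.7 ± 10.3 CPM (SD, n = 6). The difference on the log2 scale was 2.68 (SE 0.48, edgeR adjusted p = 0.00472). OsJAR1 (Os05g0586200), which joins jasmonate to isoleucine, fell to 2.46 and 2.26 CPM in nuclei, against 67.3, 30.0 and 103 CPM in upper and 6.36, 8.72 and 77.5 CPM in lower libraries. In this gene too, lower replicate 3 was at the level of the upper part. On the log2 scale it differed by -4.26 (SE 1.14, edgeR adjusted p = 0.0252). OsCOI2 (Os03g0265500), a further receptor, fell to 23.9 and 54.8 CPM in nuclei, whereas the 6 whole-cell libraries averaged 135 ± 50.2 CPM (SD, n = 6). The difference on the log2 scale was -1.73 (SE 0.52, edgeR adjusted p = 0.0397). Without nuclei replicate 1 all 3 calls were lost (edgeR adjusted p = 0.0665, 0.177 and 0.233 for OsbHLH148, OsJAR1 and OsCOI2). The call of OsJAR1 was also lost without nuclei replicate 2 and against the lower part alone (edgeR adjusted p = 0.123 and 0.0533). The call of OsCOI2 was also lost against the lower part alone and without lower replicate 3 or any upper replicate, with edgeR adjusted p of at most 0.113. DESeq2 called all 3. With replicate numbers as a block OsCOI1b (Os05g0449500), also a receptor, was called lower as well (-1.08, edgeR adjusted p = 0.0226), beside 13.8% of all genes. It had 24.8 and 66.3 CPM in nuclei and from 52.8 to 132 CPM in whole-cell libraries, so the groups overlapped.

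**Figure D4:**
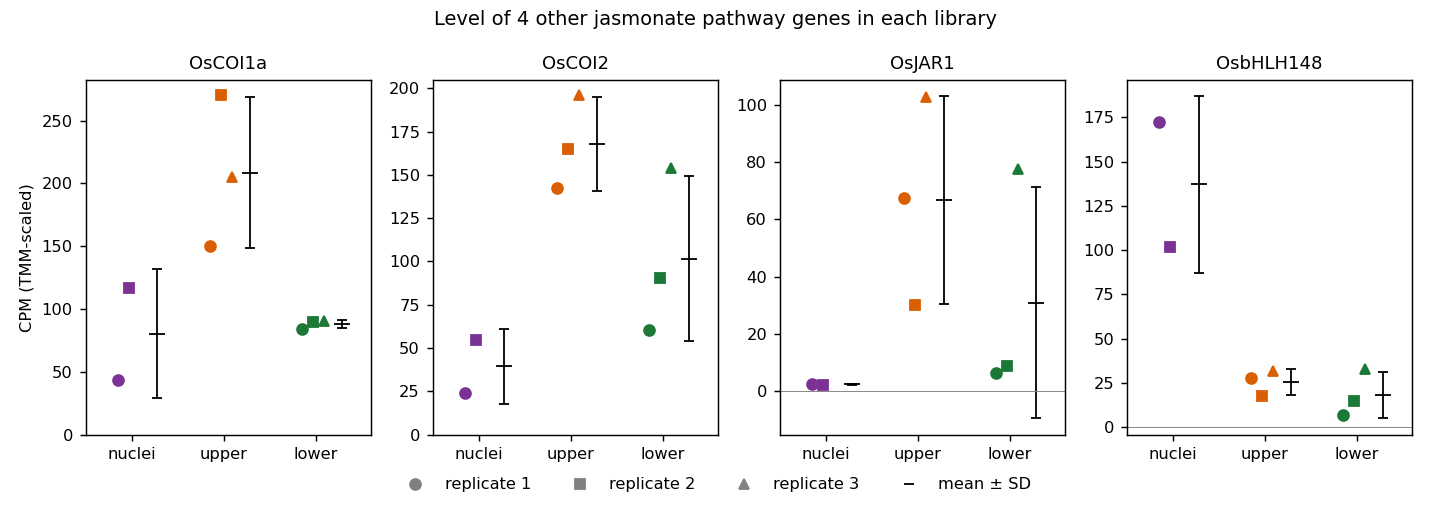
CPM (TMM-scaled, linear axis) of OsCOI1a, OsCOI2, OsJAR1 and OsbHLH148 in nuclei, upper and lower libraries; symbols are replicates and bars the mean ± SD. OsJAR1 lies at 2.46 and 2.26 CPM in nuclei and OsbHLH148 at 172 and 102 CPM, outside the range of the whole-cell libraries.

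Likeness of pattern was measured over the 6 whole-cell libraries as the root mean square difference in log2(CPM + 1), after each gene was centred on its own mean, among the 17382 genes averaging at least 10 CPM. For OsJAZ7 the closest loci were Os08g0434300, Os10g0563600 and Os02g0703600, with differences of 0.12, 0.15 and 0.17 beside a median of 0.83 over all these genes. For OsJAZ9 they were Os03g0289300, Os01g0876100 and Os02g0831900, with 0.11, 0.14 and 0.15 beside a median of 1.39. Loci picked as the closest lie under the median in any data, so the medians give only the scale. Within the family the closest member of OsJAZ12 was OsJAZ10 on another chromosome, at 0.34 and rank 34. OsJAZ9 was closest to its neighbour OsJAZ10, at 0.60 and rank 535, whereas OsJAZ11, which lies between them, was closest to OsJAZ7, at 0.56 and rank 80.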

How the data were processed

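PolyA RNA was measured. Per the labels' protocols, nuclei were isolated from ground pistils, sorted with PI labelling and made into libraries with a SMART-Seq kit, whereas the upper and lower parts went through the NEBNext Ultra II Directional kit, which keeps strand. The submitters' processing notes name STAR, featureCounts, DESeq2 and the build IRGSP-1.0, without versions. The authors deposited 1 table of unnormalized counts with 38726 features, and every column of it was matched to a sample by name. Names of members and of other listed loci were matched to a RefSeq gene table of another assembly (ASM3414082v1) by name and chromosome: all 10 members and 26 of 31 other loci matched. That table was used for names and neighbours.

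The counts were tested with edgeR 4.0.16 (R 4.3.3; quasi-likelihood test, TMM, filterByExpr) across 29848 genes for upper against lower (6 libraries) and 31858 genes for nuclei against the mean of the parts (8 libraries), with Benjamini-Hochberg adjustment over all genes tested. SE is the absolute log2 fold change divided by the square root of F. DESeq2 1.42.0, other scaling, no filter, no fold threshold, single parts, a replicate block and single libraries left out were the alternatives. The fits were tested on simulated counts. Deviations from the group means correlated across genes at 0.325, 0.625 and 0.613 between upper and lower libraries of replicates 1, 2 and 3, and at most 0.0632 for unlike numbers, so these were taken as pairs. Since each group was centred on its own mean, low values for unlike numbers partly follow from high ones for like numbers. The text gives all 10 members, other listed jasmonate loci that were called by edgeR, with or without the block, or by DESeq2, and by rule the 3 loci closest in pattern to the 2 members with the highest mean CPM over the whole-cell libraries. The members and lists were chosen with earlier results of these data known.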

Additional observations from a re-analysis of the deposited data

How the results depend on the processing

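Between the parts, 123 of the 140 refits of a member left its direction and its call as they were, and between nuclei and parts 144 of 150. Scaling by library size alone moved the median over all genes to -0.34 (log2) between the parts and -0.17 between nuclei and parts, and OsJAZ4 and OsJAZ8 turned to -0.17 and -0.31 between the parts. OsJAZ8 was also below 0 with no filter (-0.0104). With a library left out, the log2 fold change between the parts ran from -0.15 to 0.33 for OsJAZ4, from -0.35 to 0.74 for OsJAZ8 and from -0.0474 to 1.26 for OsJAZ13. With the replicate block and a pair left out it ran from -0.0187 to 0.37, from -0.64 to 1.15 and from -0.0039 to 1.09. OsJAZ8 stood at -0.36 in that fit without pair 3. In nuclei OsJAZ10 ran from -0.0941 to 0.60 with a library left out and was at -0.37 against the upper part alone. The number of members called higher in the upper part ran from 0 to 1 with a library left out, and likewise with the block and a pair left out (OsJAZ9 each time). In nuclei, with a library left out, the number of members called ran from 0 to 1 higher and from 0 to 1 lower, and DESeq2 called 1 lower.

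Over all genes, edgeR called 242 higher and 1 lower in the comparison of the parts. The replicate block gave 1529 and 902, DESeq2 1218 and 411, library size alone 3 lower, and no filter 2 lower. With a library left out, edgeR called from 0 to 916 higher and from 0 to 42 lower, and with the block and a pair left out from 98 to 2289 higher and from 0 to 1265 lower (2284 higher without pair 1, 644 lower without pair 3). Where edgeR called 0 higher, 1589 genes had an unadjusted p under 0.05, and where it called 0 lower, between 693 and 2603. In nuclei 4502 genes were called higher and 2791 lower, and the number lower was 4394 with the replicate block, 4429 with DESeq2 and 1719 against the lower part alone. With a library left out there were from 1970 to 4246 higher and from 408 to 3191 lower. The cause was not tested. With the replicate block OsJAZ13 in nuclei had 2.78 (edgeR adjusted p = 0.00529). For nuclei that block rests on shared numbers alone. Deviations correlated at 0.0331 with upper and 0.328 with lower libraries of the same number. With 2 nuclei libraries, unlike numbers give the same values with opposite sign, so pairing could not be judged from them. Every member had at least 89 counts in every library. How far counting and the spread between libraries each limit these comparisons was not tested.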
